A study of Mus musculus with 4 samples.

Results

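The genes of the mitochondrial respiratory chain, in both genomes of the cell, were followed through 4 RNA-seq libraries of cultured mouse mammary cells. Genes were taken from the expression table by symbol: subunits of complex I (Ndufa, Ndufb, Ndufc, Ndufs and Ndufv), complex II (Sdha to Sdhd), complex III (Uqcr), complex IV (Cox4 to Cox8) and complex V (Atp5), together with mt-Nd, mt-Co, mt-Atp and mt-Cytb, and without the symbols ending in -ps. This gave 111 of the 54446 genes in the table, under 110 symbols because Atp5o stood under 2 identifiers. Of these, 98 were encoded in the nucleus and 13 in the mitochondrion. By their known roles the nuclear genes held 80 subunits, among them 4 gene copies that bear a subunit's name and are annotated as processed pseudogenes (Ndufb4c, Ndufa11b, Ndufs6b and Cox6c2), and 18 other genes that the symbol rule also caught, such as the 8 Ndufaf assembly factors and the tissue-restricted isoforms of complex IV. An FPKM above 0 in all 4 libraries was found for 104 of the 111 genes.

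The respiratory chain sits in the inner mitochondrial membrane and passes electrons from NADH, through complex I, and from succinate, through complex II, to complex III, cytochrome c and complex IV, which reduces oxygen. Complexes I, III and IV pump protons on the way, and complex V, the ATP synthase, uses the returning protons to make ATP. Complex II is made wholly from nuclear genes. The others combine nuclear subunits with a small set translated inside the mitochondrion, so that RNA from both genomes is needed to build them. The mitochondrial genes are transcribed as long RNAs from each strand of a circular genome and then cut apart, mostly at the tRNAs between them, and mt-Nd6 alone among the protein genes lies on the strand opposite to the others.

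The cells were sorted by flow cytometry from the mammary gland of wild type C57BL/6 mice as basal cells, the outer, contractile layer of the epithelium, or luminal cells, the inner layer, and grown in 3D in Matrigel. The medium held either DMSO, the solvent control, or 100 μM baicalin, a flavonoid of Scutellaria roots, and each of the 4 conditions had 1 library. The study's methods name female mice over a range of ages as the source of sorted cells, and the age and number of mice behind each library are not given in the sources used here. Values are FPKM, fragments per kilobase of exon scaled to library depth, and between 19356270 and 20648700 fragments lay behind each library. With 1 library per condition no difference can be set against a spread between replicates, no p-value is given, and every 95% interval below is an exact interval from fragment counts that covers counting error only. In bulk RNA, fewer cells of a type and less RNA per cell cannot be told apart.

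The libraries went against their labels. All 10 basal markers examined were higher in the library labelled luminal than in the library labelled basal, with DMSO as with baicalin, and 9 of 10 luminal markers were lower. Krt5, a basal keratin, stood at 128 FPKM in the library labelled basal with DMSO, 3.01 in the library labelled basal with baicalin, 2015 in the library labelled luminal with DMSO and 2415 in the library labelled luminal with baicalin. Krt8, a luminal keratin, stood at 1573, 754, 383 and 324 FPKM in the same order. "Basal" and "luminal" are therefore used below as labels of libraries, and this order of the libraries is kept wherever 4 values are given. Markers of other cells were low, with summed FPKM between 2.60 and 10.4 for 6 fibroblast genes, between 5.95 and 54.4 for 5 immune genes, between 0.80 and 2.98 for 3 endothelial genes and between 1.52 and 15.99 for 5 adipocyte genes. The highest immune sum was in the library labelled basal with baicalin and the highest adipocyte sum in the library labelled luminal with DMSO, and their part in the values below was not tested.

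The 13 mitochondrial genes took 2.77% of all fragments in the basal DMSO library, 2.29% in the basal baicalin library, 4.11% in the luminal DMSO library and 3.57% in the luminal baicalin library. The exact 95% binomial interval on the first of these ran from 2.76% to 2.78%, and the others were as narrow. The share was thus higher in both luminal libraries than in both basal ones, and lower with baicalin under either label. The 80 nuclear subunits took 0.70%, 0.65%, 0.87% and 0.70%. Per length of RNA, the 13 mitochondrial genes summed to 5.36 times the nuclear subunits in the basal DMSO library, 4.79 times in the basal baicalin library, 6.32 times in the luminal DMSO library and 6.65 times in the luminal baicalin library.

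Levels among the mitochondrial genes spread from 1.95 to 12254 FPKM, as the plot of their FPKM by gene shows. mt-Co1, the catalytic core of complex IV, was highest in each library, at 8858, 7146, 12254 and 11450 FPKM. mt-Cytb, the only mitochondrial subunit of complex III, followed at 3574, 2776, 6648 and 4752 FPKM. Both were lower with baicalin than with DMSO and higher in the luminal than in the basal libraries. Of the membrane subunits of complex I, mt-Nd1 stood at 3022, 2720, 4618 and 3367 FPKM. mt-Nd2 stood at 2004, 2208, 2738 and 2554 FPKM, and was the one abundant mitochondrial gene that was higher with baicalin in the basal libraries. mt-Nd5 stood at 1828, 1341, 2723 and 2525 FPKM, and mt-Nd4 at 1152, 940, 1647 and 1518 FPKM. Each of these 6 genes was above 900 FPKM in all libraries, and together they held nearly all fragments of the mitochondrial set, 549324 of 550319 in the basal DMSO library.

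The other 7 genes were far lower. mt-Nd6 (ENSMUSG00000064368, positions 13552 to 14070, minus strand), the complex I gene of the opposite strand, had 41.3, 19.2, 78.8 and 30.3 FPKM. mt-Co2, which takes electrons from cytochrome c, had 17.4, 13.3, 30.5 and 20.4 FPKM, and mt-Co3, also of complex IV, had 7.26, 7.04, 14.0 and 10.8 FPKM. The ATP synthase genes mt-Atp6, part of the proton channel, and mt-Atp8 had 9.17, 10.6, 18.7 and 12.6 FPKM and 4.94, 5.32, 10.9 and 8.31 FPKM. The small complex I genes mt-Nd4l and mt-Nd3 had 9.67, 6.97, 6.44 and 7.01 FPKM and 2.75, 3.12, 2.82 and 1.95 FPKM.

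Of these low genes, 5 have a nuclear copy on chromosome 1 that covers the gene except for 3 bases at most, with an identity of at least 99.7%: mt-Co2 (copy Gm28661), mt-Co3 (Gm28437), mt-Atp6 (Gm10925), mt-Nd3 (Gm28438) and mt-Nd4l (Gm10222). These genes lay between 1.95 and 30.5 FPKM, and their copies were listed at levels of the same order, such as Gm28661 at 9.17, 9.41, 17.1 and 11.5 FPKM. mt-Nd2, mt-Nd4 and mt-Nd5, which have a copy over between 49.1% and 63.6% of their length, lay between 940 and 2738 FPKM. How fragments that match several places were counted is not given in the sources used here, so a level, or a ratio between mitochondrial genes, is uncertain for any gene with such a copy. mt-Co1 itself has a full-length copy on chromosome 2 at 97.6% identity (Gm13340, 2.17 to 3.60 FPKM) and shares 483 bases with Gm29216 on chromosome 1 at 99.8% identity (11.5 to 21.001 FPKM). For mt-Cytb, mt-Nd1, mt-Nd6 and mt-Atp8 no copy was found among annotated transcripts, and mt-Atp8 shares 43 of its 204 bases with mt-Atp6. The following stretches show both situations. For mt-Co2 (mitochondrial genome, positions 7013 to 7696) the 60 bases from position 311 of the gene are printed with the same stretch of Gm28661 (chr1:24614885-24615565, minus strand), and the 681 aligned bases held no mismatch. For mt-Nd2 (positions 3914 to 4951), 17 of 510 aligned bases differed from Gm13339 (chr2:22590024-22590533, minus strand), and capitals mark the differing bases in the 60 printed from position 750 of the gene, which are C759T, C780T and T781C counted from the first base of mt-Nd2, with the gene's base first.
mt-Co2: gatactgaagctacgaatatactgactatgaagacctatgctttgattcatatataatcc
Gm28661: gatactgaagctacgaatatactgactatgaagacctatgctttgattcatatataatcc
mt-Nd2: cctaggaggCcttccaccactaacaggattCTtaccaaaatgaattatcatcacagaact
Gm13339: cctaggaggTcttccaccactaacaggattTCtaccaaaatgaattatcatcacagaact
A read inside the mt-Co2 stretch matches both places equally well, whereas the 3 differing bases separate the places for a read over the mt-Nd2 stretch.

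**Figure D1:**
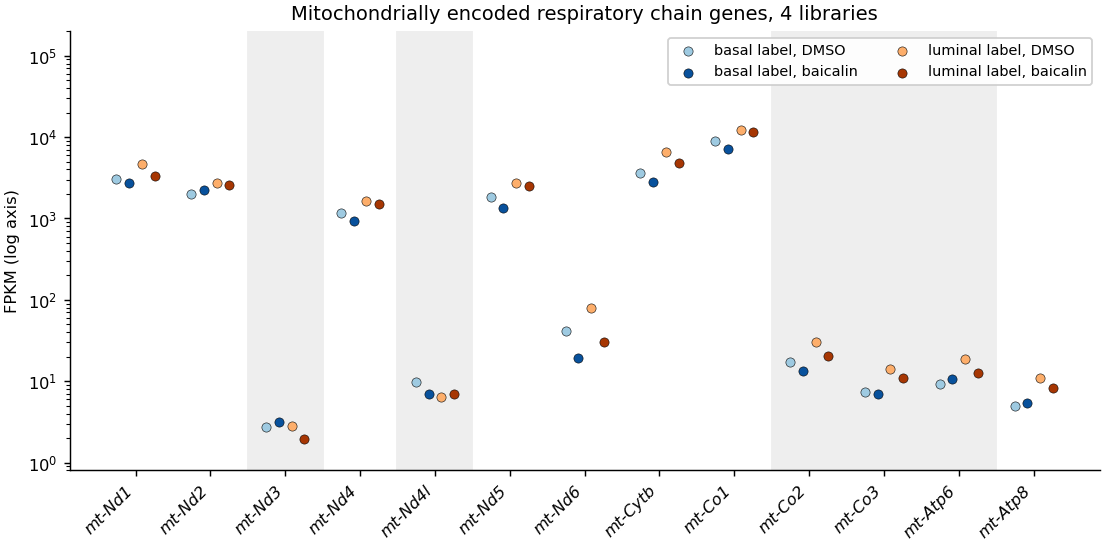
FPKM on a log axis of the 13 mitochondrially encoded genes in the 4 libraries, 1 point per library, with the 5 genes that have a near-identical nuclear copy shaded in grey. mt-Co1 lies between 7146 and 12254 FPKM, and the shaded genes lie between 1.95 and 30.5 FPKM.

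The first comparison asks how the respiratory chain genes stood with baicalin against DMSO in the libraries labelled basal. The set was slightly lower, and only in complex III were nearly all nuclear subunits, 7 of 8, on the lower side. Differences are given as log2 of (FPKM + 1) over (FPKM + 1), and a difference beyond 1 in either direction was taken as the threshold. Of the 104 genes, 1 passed it, mt-Nd6, which was lower, whereas 5.48% of all 17787 genes above 0 in every library did, 2.15% upward and 3.33% downward. Of the 78 nuclear subunits above 0 in every library, 30 were higher and 48 lower with baicalin, by any size, beside 50.9% and 49.1% of all genes. Their median difference was -0.09, beside 0.01 over all genes, and their summed FPKM was 0.937 times that with DMSO. The counting interval on the FPKM ratio lay wholly above 1 for 21 of them and wholly below 1 for 32, beside 28.1% and 26.3% of all genes. Such intervals narrow as fragments rise, and among the 6642 genes of at least 5 FPKM in every library, as 74 of the 78 subunits were, these shares were 35.8% and 38.1%.

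In the libraries labelled luminal nearly all subunits were lower with baicalin. Of the 104 genes, 2 passed the threshold, mt-Nd6 and Cox4i2, both lower, beside 3.95% of all genes, 2.37% upward and 1.59% downward. Of the 78 nuclear subunits 72 were lower and 6 higher, beside 54.4% and 45.6% of all genes, and for 60 the counting interval lay wholly below 1 and for 1 above, beside 28.7% and 22.9% of all genes and 37.6% and 32.1% of those of at least 5 FPKM. The median difference was -0.25, beside -0.02 over all genes, and the central subunits by rank lay between -0.38 and -0.16 (25th and 75th percentiles). Their summed FPKM was 0.810 times that with DMSO. The difference was therefore small for each subunit and shared by most of them.

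Under both labels 46 of the 78 nuclear subunits were lower with baicalin and 4 higher, beside 31.4% and 28.0% of all genes. The difference in the luminal libraries lay below that in the basal libraries for 61 of 78 subunits, beside 54.8% of all genes, with a median gap of -0.18. Of the 104 genes 18 had a counting interval above 1 in the basal and below 1 in the luminal libraries, beside 5.4% of all genes, and 0 had the reverse, beside 5.21%. This gap between labels was not tested because each label had 1 pair of libraries. The luminal DMSO library, which enters both the luminal baicalin comparison and the DMSO comparison of labels below, was the highest of the 4 libraries for 64 of the 78 subunits and for 11 of the 13 mitochondrial genes, beside 30.0% of all genes. The values of 1 library therefore enter both comparisons.

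The mitochondrial genes were lower with baicalin under both labels. In the basal libraries 9 of 13 were lower and 4 higher, beside 49.1% of all genes lower, with a median of -0.29. In the luminal libraries 12 were lower and 1, mt-Nd4l, higher, beside 54.4% of all genes lower, with a median of -0.35. For the 6 genes above 900 FPKM the medians were -0.30 and -0.11. The summed FPKM of all 13 genes with baicalin was 0.838 times the DMSO value in the basal and 0.853 times in the luminal libraries. For mt-Co1 the ratio was 0.807 (95% counting interval 0.802 to 0.811) in the basal and 0.934 (0.930 to 0.939) in the luminal libraries. For mt-Cytb it was 0.777 (0.769 to 0.785) and 0.715 (0.709 to 0.720). mt-Nd6 had the largest difference of the mitochondrial genes under both labels, with log2 values of -1.07 and -1.35, and ratios of 0.464 (0.391 to 0.550) and 0.385 (0.337 to 0.438) on 426, 202, 792 and 325 fragments. It overlaps mt-Nd5, on the other strand, by 14 of its 519 bases. mt-Nd5, its neighbour of the opposite strand, had log2 values of -0.45 and -0.11.

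The ribosomal RNA genes of the same genome, which are not members, had the opposite direction. mt-Rnr1, the small ribosomal RNA, had 128, 591, 107 and 294 FPKM, a log2 difference with baicalin of 2.20 in the basal and 1.46 in the luminal libraries. mt-Rnr2, the large ribosomal RNA, had 353, 823, 337 and 423 FPKM, with log2 values of 1.22 and 0.33. Both are cut from the same strand's transcript as mt-Nd1. The libraries were enriched with oligo (dT) beads, and the share of ribosomal RNA that this leaves in each library was not tested. How far the enrichment kept each mitochondrial RNA, mt-Nd6 among them, was not tested either.

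**Figure D2:**
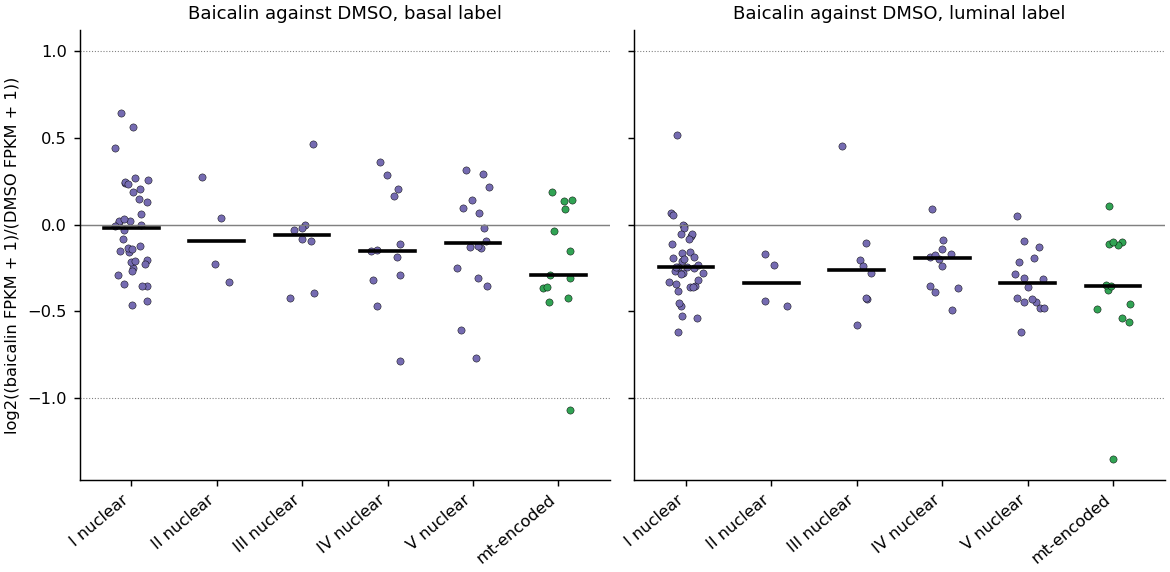
Log2 difference in FPKM (pseudocount 1) between baicalin and DMSO for each nuclear subunit, by complex, and for each mitochondrially encoded gene, with libraries labelled basal on the left and luminal on the right. Each point is a gene, black bars are medians, and dotted lines mark the threshold of 1. In the luminal libraries the medians of complexes I to V lie between -0.34 and -0.19, and mt-Nd6 lies below -1 in both panels.

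By complex, the nuclear subunits of complex I, 38 above 0 in every library, had a median of -0.02 with baicalin in the basal libraries, with 17 higher and 21 lower, and of -0.25 in the luminal libraries, with 3 higher and 35 lower. The 7 nuclear subunits of its catalytic core, which carry the flavin and the iron-sulfur clusters, had medians of -0.21 and -0.20. The 31 accessory subunits had medians of -0.0031 and -0.25. Ndufs1, the largest core subunit, had 14.7, 11.9, 14.9 and 12.9 FPKM, a log2 difference of -0.29 in the basal libraries. Ndufv2, of the NADH-binding arm, had 26.5, 21.8, 34.1 and 24.7 FPKM, -0.45 in the luminal libraries. Ndufs7, which holds the last iron-sulfur cluster before the quinone, was higher in the basal and lower in the luminal libraries, at 11.7, 14.2, 14.7 and 11.9 FPKM. All 7 core subunits were lower with baicalin in the luminal libraries, and 5 of 7 in the basal ones.

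Among the accessory subunits, Ndufa6 (ENSMUSG00000022450, chromosome 15, 82350140 to 82354322 on GRCm38) showed the widest gap between labels. It had 15.4, 23.2, 22.4 and 18.7 FPKM, so that baicalin stood above DMSO in the basal libraries, at a ratio of 1.51 (1.35 to 1.68), and below it in the luminal libraries, at 0.834 (0.752 to 0.925). Ndufa1, a small membrane subunit, had the lowest value of complex I in the basal comparison, with 66.8, 48.2, 94.9 and 78.8 FPKM and a log2 difference of -0.46. Ndufb7 had the lowest in the luminal comparison, with 7.05, 6.89, 10.6 and 6.53 FPKM and a log2 difference of -0.62, at a ratio of 0.618 (0.557 to 0.685). The highest value under both labels was that of the gene copy Ndufb4c, which rested on 1, 6, 1 and 5 fragments, with ratios of 5.87 (0.713 to 270.1) and 4.69 (0.524 to 221.7) that counting error alone spans. The 8 assembly factors among the members, which build complex I but do not stay in it, had medians of 0.01 and -0.15. Ndufaf2 was the lowest of them under both labels, at 7.22, 4.54, 7.63 and 4.57 FPKM, although 65.6% of its exon bases overlap a gene on the other strand.

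Complex II links the citrate cycle to the chain and has no mitochondrial gene. Sdha, the flavoprotein that oxidises succinate, stood at 58.9, 50.3, 61.6 and 45.1 FPKM. Sdhb, the iron-sulfur subunit, stood at 31.2, 37.9, 32.1 and 28.5 FPKM. The membrane anchors Sdhc and Sdhd stood at 23.1, 23.7, 30.1 and 25.4 FPKM and at 76.8, 60.8, 80.5 and 58.0 FPKM. With baicalin Sdhb was thus higher and Sdha and Sdhd lower in the basal libraries, and all 4 were lower in the luminal ones, with log2 differences between -0.47 and -0.17.

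In complex III, 7 of the 8 nuclear subunits caught by the symbol rule were lower with baicalin under each label, with medians of -0.06 and -0.26. Uqcrq (ENSMUSG00000044894, chromosome 11, 53427922 to 53430831), a small subunit beside cytochrome b, was the exception under both, with 31.1, 43.2, 29.7 and 41.1 FPKM and ratios of 1.391 (1.289 to 1.503) and 1.383 (1.278 to 1.496). No other nuclear subunit had a counting interval above 1 under both labels. Of the remaining members above 0 in every library Cox7a2l did. Uqcrh, the hinge protein that contacts cytochrome c1, was the lowest under both, with 138.6, 103.1, 229 and 153 FPKM and log2 differences of -0.42 and -0.58. Cytochrome c1 itself, Cyc1, is a nuclear subunit that the symbol rule leaves out. It stood at 36.2, 31.8, 41.3 and 33.1 FPKM, with log2 differences of -0.18 and -0.31.

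In complex IV, 12 nuclear subunits had medians of -0.15 and -0.19. Ndufa4, named for complex I but a subunit of complex IV, is counted here and stood at 76.8, 69.2, 101.5 and 89.6 FPKM. Cox6b1, which faces the intermembrane space, was lower under both labels, at 216, 156, 283 and 201 FPKM, with log2 differences of -0.47 and -0.49. Cox8a, Cox7c, Cox6a1 and Cox4i1 were higher with baicalin in the basal and lower in the luminal libraries, and Cox8a had 129, 166, 177 and 154 FPKM. Cox5a was the subunit that stood highest in the luminal baicalin comparison, at 30.6, 26.7, 25.8 and 27.6 FPKM, a log2 difference of 0.09. Cox7a2l (ENSMUSG00000024248, chromosome 17, 83501918 to 83517330), also called SCAF1, joins complexes III and IV into supercomplexes and is not a subunit in the strict sense. Its level was 109, 179, 173 and 180 FPKM, so the basal DMSO library stood apart from the other 3, and the ratio with baicalin was 1.64 (1.57 to 1.71) in the basal and 1.041 (1.002 to 1.082) in the luminal libraries. It shares 342 bases with the pseudogene Gm6969 at 97.7% identity, and that copy stood between 3.39 and 5.48 FPKM.

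Several complex IV subunits have a second form made in certain tissues. Cox4i2 (ENSMUSG00000009876, chromosome 2, 152754173 to 152765037), the isoform linked to lung and low oxygen, had 0.13, 0.13, 5.18 and 0.55 FPKM on 2, 2, 79 and 9 fragments, and was thus high in the luminal DMSO library alone. Its ratio with baicalin in the luminal libraries was 0.107 (0.047 to 0.213), and the common form Cox4i1 stood at 138, 154, 189 and 160 FPKM. Cox6a2 (ENSMUSG00000030785), the heart and skeletal muscle form, was at 0 in both DMSO libraries and at 0.94 and 1.78 FPKM with baicalin, on 13 and 25 fragments. Against the limit of 3 fragments that a count of 0 allows in a library, it was at least 4.24-fold higher with baicalin in the basal and at least 7.81-fold higher in the luminal libraries when the 13 and 25 fragments are taken as counted. With their own counting error included, the exact intervals on the ratios began at 2.98 and 5.90. Of its 680 exon bases 70 overlap Itgad on the other strand, which was at 0 FPKM in 3 libraries and at 0.03 in the luminal DMSO library. The common form Cox6a1 stood at 99.3, 114, 139 and 126 FPKM. Cox6b2, the testis form, had 0.05, 0.93, 2.52 and 2.23 FPKM on 1, 21, 54 and 51 fragments, so that its ratios against the basal DMSO library rest on 1 fragment. Cox7a1, the muscle form, had 1.22, 0.55, 1.35 and 0.18 FPKM on 13, 6, 14 and 2 fragments, beside 67.3, 62.2, 63.9 and 60.1 FPKM of Cox7a2. Cox7b2, Cox8b and Cox8c were at 0 in all 4 libraries, which allows up to 3 fragments in each. Ndufa4l2, a paralog of Ndufa4, had 3 fragments at most in any library. Apart from Cox4i2 and Cox6b2 in some libraries, the common forms were thus the ones detected above 2 FPKM.

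In complex V, 15 of 16 nuclear subunits above 0 were lower with baicalin in the luminal libraries, with a median of -0.34, and 10 of 16 in the basal ones, with a median of -0.11. Atp5k (ENSMUSG00000050856, chromosome 5, 108433244 to 108434448), subunit e of the membrane part, which takes part in pairing ATP synthases, had 67.5, 39.2, 94.5 and 61.2 FPKM. Its ratios were 0.581 (0.518 to 0.650) and 0.648 (0.591 to 0.711), and among nuclear subunits with at least 10 fragments in each library it was the lowest in the basal comparison. Atp5k-ps2, a pseudogene that shares 210 bases with it at 95.7% identity, had 13.2, 6.81, 28.8 and 21.2 FPKM. The c ring that turns in the membrane is made from 3 genes for 1 protein. Atp5g3 was the most abundant, at 74.9, 48.8, 100.0 and 71.3 FPKM, followed by Atp5g2 at 40.1, 46.7, 61.5 and 49.6 FPKM and Atp5g1 at 6.24, 7.88, 11.5 and 10.4 FPKM. Atp5g3 was lower with baicalin under both labels, whereas Atp5g1 and Atp5g2 were higher in the basal and lower in the luminal libraries. Atp5d, the delta subunit, was the 1 subunit higher under both labels, at 51.8, 64.8, 62.5 and 64.7 FPKM. Its luminal ratio of 1.03 (0.978 to 1.09) was within counting error. Atp5s, which bears the family's name but is a coupling factor, had 2.91, 3.82, 4.10 and 2.78 FPKM.

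**Figure D3:**
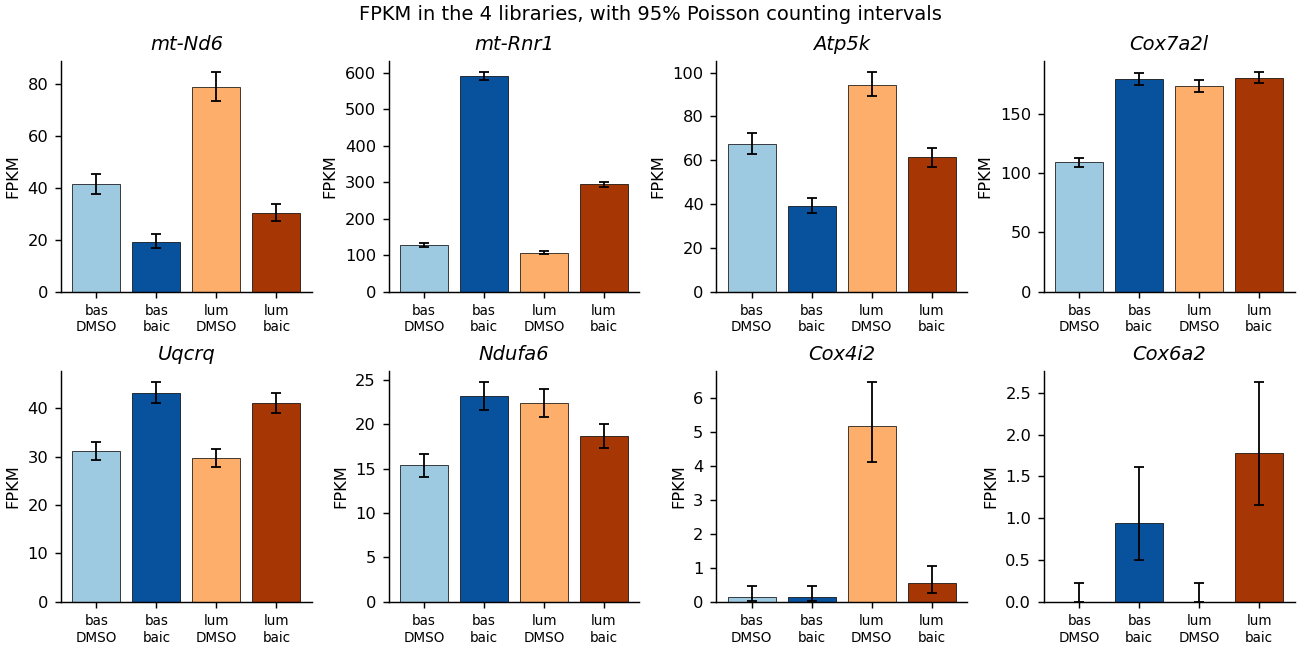
FPKM of 7 respiratory chain genes and of the ribosomal RNA gene mt-Rnr1 in the 4 libraries (bas and lum, libraries labelled basal and luminal; baic, baicalin), with error bars for exact 95% Poisson intervals from fragment counts and, at a count of 0, up to the limit of 3 fragments. mt-Nd6 and Atp5k are lower and mt-Rnr1 and Uqcrq higher with baicalin under both labels, Ndufa6 goes in opposite directions, Cox4i2 is high in the luminal DMSO library alone, and Cox6a2 was counted only with baicalin.

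The second question is how the labels compared within a treatment. With DMSO the chain was higher in the library labelled luminal. Of the 104 genes 3 were higher by more than 1, Cox4i2, Cox6b2 and mt-Atp8, and none lower, beside 8.56% of all genes past the threshold, 4.71% upward and 3.86% downward. Their ratios were 40.5 (10.9 to 340.4), 55.4 (9.53 to 2228) and 2.21 (1.27 to 3.96), and the basal DMSO library held 2, 1 and 20 fragments of them. Of the 78 nuclear subunits 72 were higher and 6 lower, beside 52.5% and 47.5% of all genes, with a median of 0.33, and for 63 the counting interval lay above 1 and for 1 below, beside 30.5% and 30.2% of all genes. In TPM, the same values scaled to a fixed sum in each library, 66 were higher, 12 were lower, and the median was 0.23, beside 44.5% of all genes higher and a median of -0.06 over all genes. The 13 mitochondrial genes stood further apart, with 12 higher, 1 lower (mt-Nd4l) and a median of 0.61, against 11 higher and a median of 0.50 in TPM, and their summed FPKM was 1.4997 times the basal value against 1.27 times for the nuclear subunits.

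With baicalin the nuclear difference between labels was smaller. The mitochondrial one was about as large by median and by summed FPKM, although its size was smaller for 9 of 13 genes. For each gene, the change of this log2 difference between treatments equals the gap between labels given above, so it is not a separate result. Of the 104 genes 1 was higher by more than 1, the gene copy Cox6c2 on 1 against 8 fragments, a ratio of 7.86 (1.05 to 348.7), beside 8.23% of all genes past the threshold, 5.24% upward and 2.99% downward. Of the 78 nuclear subunits 56 were higher and 22 lower in the library labelled luminal, beside 45.2% and 54.8% of all genes, with a median of 0.10, and the counting interval lay above 1 for 37 and below 1 for 10, beside 25.8% and 33.7% of all genes. In TPM 45 were higher, 33 were lower, and the median was 0.032, beside 40.9% of all genes higher and a median of -0.10 over all genes. Of the 13 mitochondrial genes 12 were higher in FPKM, with a median of 0.56, and 11 in TPM, with a median of 0.53, and a summed FPKM of 1.53 times the basal value against 1.10 times for the nuclear subunits.

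By complex, the DMSO medians of the nuclear subunits between labels were 0.32 for complex I, 0.07 for complex II, 0.20 for complex III, 0.42 for complex IV and 0.36 for complex V, and the baicalin medians were 0.13, -0.11, 0.10, 0.20 and 0.08. Complex II was closest to 0 with DMSO, and its median was -0.04 in TPM. Ndufb10 of complex I, at 38.4, 38.3, 70.6 and 48.3 FPKM, had the largest DMSO difference among nuclear subunits on the log2 scale, 0.86, at a ratio of 1.839 (1.696 to 1.995). As a ratio the low Ndufb2 stood higher, at 1.990 (1.471 to 2.714) on 67 and 130 fragments. On the log2 scale Atp5g1 of complex V stood at 0.78 and Uqcrh of complex III at 0.72. Cox5a was the lowest of the nuclear subunits with DMSO, a log2 difference of -0.24. The assembly factors did not share this direction, with medians of -0.05 with DMSO and -0.13 with baicalin. Ndufaf1 among them was lower in the luminal libraries, at 13.4, 13.1, 9.05 and 7.65 FPKM.

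**Figure D4:**
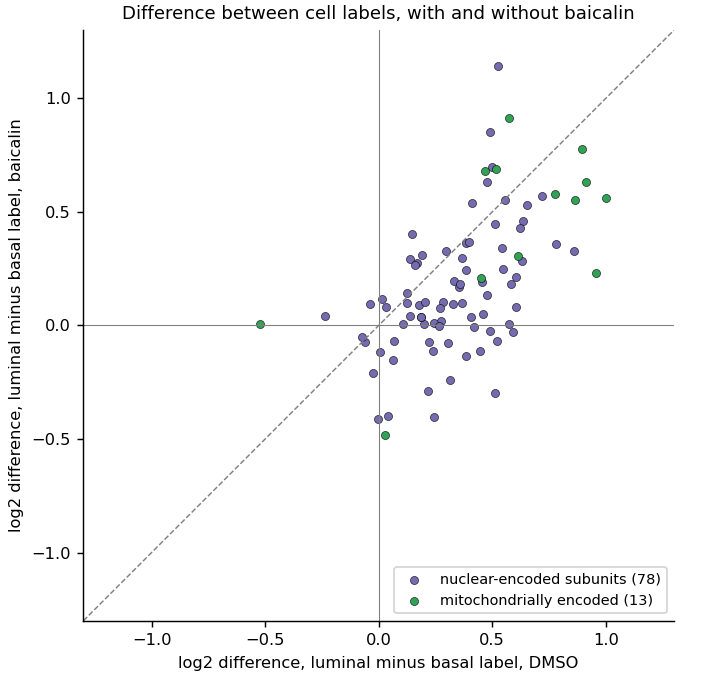
Log2 difference in FPKM (pseudocount 1) between the library labelled luminal and the library labelled basal, with DMSO on the horizontal and with baicalin on the vertical axis, for 78 nuclear subunits and 13 mitochondrially encoded genes. Each point is a gene and the dashed line marks equal differences. Nuclear subunits centre on 0.33 and 0.10, and mitochondrial genes on 0.61 and 0.56.

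The genes that assemble, feed and regulate the chain are given from lists written from general knowledge. Beside the same background as above, the 14 citrate cycle enzymes were mostly lower with baicalin, 12 of 14 under each label, with medians of -0.18 and -0.22 and none past the threshold. The largest differences were those of Idh3a, a subunit of NAD-dependent isocitrate dehydrogenase, at 27.8, 19.6, 30.6 and 23.3 FPKM, and of Fh1, fumarase, at 22.0, 17.9, 22.1 and 14.2 FPKM. The assembly factors of complex IV went the other way in the basal libraries, with 14 of 21 higher, 7 lower and 0.13 as the median, led by Surf1 at 12.7, 21.1, 14.7 and 14.9 FPKM. Of 25 genes for mitochondrial transcription, RNA processing and DNA maintenance, 14 stood above and 11 below their DMSO level in the basal and 11 above and 14 below in the luminal libraries. Between labels 19 of these 25 were lower in the luminal library with DMSO and 22 with baicalin, while the mitochondrial RNAs were higher there. Pnpt1, a ribonuclease of the mitochondrion, stood at 20.1, 13.2, 11.8 and 9.82 FPKM, and Trmt10c, which takes part in cutting out the tRNAs, at 12.8, 17.6, 7.68 and 9.002 FPKM.

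Of 11 nuclear regulators of mitochondrial genes, Ppard alone passed the threshold with baicalin, upward in the luminal libraries. The list had medians of 0.15 and -0.09 with baicalin. Between labels Ppargc1b passed the threshold with DMSO, upward in the luminal library, a log2 difference of 1.34 at 1.25, 2.13, 4.71 and 2.77 FPKM. With DMSO 5 of the 11 regulators were higher and 6 lower in the luminal library, with a median of -0.02. The other assembly lists and those of cytochrome c and coenzyme Q synthesis, carriers and protein import had medians between -0.15 and 0.07 with baicalin, with no gene past the threshold. Of 7 genes tied to low oxygen, 4 were higher and 3 lower in the basal and 3 higher and 4 lower in the luminal libraries. Among them 2 passed the threshold in the basal libraries, Bnip3, a mitochondrial receptor for autophagy, upward at 4.45, 10.8, 5.61 and 4.49 FPKM, and Pdk3, a pyruvate dehydrogenase kinase, downward at 9.60, 4.12, 11.96 and 7.34 FPKM. Pdk1, which slows pyruvate entry, stood at 4.07, 4.41, 8.73 and 5.01 FPKM. Pdk1 and Pdk3 thus had their highest level in the library in which Cox4i2 was high. The rest of this list did not share that pattern. Hif1a, at 24.2, 35.7, 27.9 and 46.9 FPKM, was highest in the luminal baicalin library. Bnip3 and Lonp1 were highest in the basal baicalin library, and Higd1a in the basal DMSO library. Ucp2, a carrier of the inner membrane, stood at 27.9, 19.0, 80.6 and 95.5 FPKM, past the threshold upward in the luminal against the basal library with either treatment.

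Promoters were searched because many nuclear subunits are known targets of the factors NRF1 and GABP, the latter binding ETS motifs. RefSeq start sites on GRCm38.p6 were found for 76 of the 110 symbols, with 81 windows from 250 bases before to 50 after the start. The NRF1 letters GCGCA, then any base, then GCGC, searched on both strands, were in 24.69% of these windows, beside 4.60% of all 32851 windows and 1323 of the 14699 windows of genes above 0 in all 4 libraries. The ETS letters CCGGAAG, on both strands, were in 22.22% of the members' windows, beside 8.86% of all windows and 15.87% of those of genes above 0. The 17 nuclear subunits with the NRF1 letters had medians of -0.02 with baicalin in the basal and -0.33 in the luminal libraries, and the 46 without had -0.09 and -0.24. The 16 with the ETS letters had -0.03 and -0.31, and the 47 without had -0.09 and -0.25. A match describes letters in a window and not a bound site. The 250 bases before the start are shown for Atp5k, lower with baicalin under both labels, with the NRF1 letters, which read the same on both strands, in capitals (chr5:108434400-108434649, minus strand), and for Cox7a2l, higher in the basal libraries, whose window holds neither motif (chr17:83514334-83514583, minus strand). RefSeq starts need not be those of the GENCODE spans given above: the Atp5k window reaches into the upstream end of its span, and the Cox7a2l window lies inside its span, which a longer transcript extends upstream of this start.
Atp5k: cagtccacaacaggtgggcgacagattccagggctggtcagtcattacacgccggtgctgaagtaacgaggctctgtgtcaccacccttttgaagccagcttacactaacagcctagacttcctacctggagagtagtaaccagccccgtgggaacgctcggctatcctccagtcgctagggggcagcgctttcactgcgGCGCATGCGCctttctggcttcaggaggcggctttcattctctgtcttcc
Cox7a2l: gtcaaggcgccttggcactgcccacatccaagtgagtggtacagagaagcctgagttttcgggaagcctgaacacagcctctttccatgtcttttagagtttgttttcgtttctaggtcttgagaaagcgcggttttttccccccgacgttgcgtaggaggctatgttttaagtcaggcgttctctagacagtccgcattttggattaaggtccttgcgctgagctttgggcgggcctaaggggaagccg
The letters sit near the end of the Atp5k window, close to the start of the gene. The 250 bases before the start of Ndufa6 and of Cox8a, also examined, held neither motif. Both genes were higher with baicalin in the basal and lower in the luminal libraries.

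Stretches shared with other genes also touch the nuclear members. Of the 111 genes 44 share a stretch of at least 200 bases, or most of a transcript, at 95% identity or more with another annotated gene, most often a processed pseudogene. These include genes that overlap another gene at the same locus, such as Ndufa13, which shares 375 bases with Tssk6. They were not separated from copies elsewhere in the genome. The 47 nuclear subunits without such a stretch had medians of -0.09 and -0.24 with baicalin in the basal and luminal libraries. The 31 with one that were above 0 in every library had -0.09 and -0.28. Between labels the medians were 0.30 and 0.40 with DMSO and 0.08 and 0.12 with baicalin. The medians of subunits with and without a shared stretch thus had the same sign in each of the 4 comparisons.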

How the data were processed

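RNA was sequenced from 4 libraries, 1 per condition, and the libraries were grouped by their labels. Per the study's methods, the authors selected polyadenylated RNA on oligo (dT) beads, prepared stranded libraries, mapped reads to GRCm38 by HISAT2, assigned them to the genes of Ensembl release 94 by featureCounts and deposited FPKM for 54446 genes. The submitters' processing notes also name Bowtie 0.12.2 and the build mm8, without a role. Whether strand was used in counting is not given in the sources used here. FPKM multiplied by exon length (GENCODE mouse release 21) fell on steps of 1 fragment for 98.7% to 98.9% of low values (tolerance 0.1 fragment), from which each library's depth and each gene's fragments were taken.

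Differences were computed as log2((FPKM + 1)/(FPKM + 1)) for the 17787 genes above 0 in all 4 libraries, a scale that understates differences of low genes. Since 1 library stands for each condition, no test was made. Intervals of 95% on ratios are exact (Clopper-Pearson) and use the recovered fragments, with 3 fragments as the limit for a count of 0. Shares of all genes by counting interval cover the 17781 genes with an exon length, and those among genes of at least 5 FPKM were added after the data were seen. Near-identical stretches shared with other genes were found with blastn 2.17.0. Genes were named by a rule: the mitochondrial genes, complex II, the isoforms with their common forms, members past the threshold, and the largest difference in each direction within a role. Genes that went in opposite directions under the labels, and examples beyond this rule, were chosen after their values were seen. The members and lists were chosen with earlier results of these data known. The computation was tested on simulated data. Alternatives were other pseudocounts, filters on low values, scalings and thresholds, and leaving out genes with near-identical shared stretches. The software was Python 3.11.15 with pandas 2.3.3, numpy 2.4.6, scipy 1.17.1 and, for the plots, matplotlib 3.10.9.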

Additional observations from a re-analysis of the deposited data

Results flagged for a closer look

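In 18 of the 104 members the difference with baicalin was upward in the libraries labelled basal and downward in those labelled luminal, with the counting interval on the ratio wholly above 1 in the former and wholly below 1 in the latter, beside 5.4% of all genes and 7.2% of those of at least 5 FPKM in every library. With 1 pair of libraries per label the difference between labels was not tested. The gap, the luminal minus the basal log2 difference, was widest in complex I for Ndufa6 (-0.81) and Ndufb9 (-0.62), followed by Ndufs7 (-0.55), Ndufa13 (-0.52), Ndufb4 (-0.51), Ndufab1 (-0.41), Ndufc2 (-0.36), Ndufa10 (-0.29) and the mitochondrial mt-Nd2 (-0.24). In complex II it was -0.44 for Sdhb. In complex IV it was -0.65 for Cox7c, -0.56 for Cox8a, -0.40 for Cox4i1 and -0.35 for Cox6a1. In complex V it was -0.57 for Atp5h, -0.52 for Atp5g2, -0.42 for Atp5g1 and -0.73 for the coupling factor Atp5s.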

How the results depend on the processing

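No paired analysis was possible because each condition had 1 library and the number 1 is shared by all of them. For the same reason no library could be left out. Among the named genes recomputed, 7 differences between labels that were within 0.067 of 0 turned sign in TPM. With DMSO these were Ndufs1 (-0.09), Sdha (-0.04), Sdhb (-0.07), Sdhd (-0.04) and mt-Nd3 (-0.07), and with baicalin Cox7a2l (-0.06) and mt-Nd4l (-0.06). Other subunits turned sign as well. Nuclear subunits higher in the library labelled luminal went from 72 to 66 with DMSO and from 56 to 45 with baicalin. No difference of baicalin against DMSO turned sign among the sets and named genes recomputed. The number of members past the threshold moved with the pseudocount, the filters, the scaling and the threshold. With baicalin against DMSO in the basal libraries it went from 1 to 5 with a pseudocount of 0.1 or none, to 4 in TPM and to 7 with a 1.5-fold threshold. In the luminal libraries it went from 2 to 4 with a pseudocount of 0.1, to 5 with none, to 4 in TPM, to 1 among genes with at least 10 fragments and to 6 at 1.5-fold. Between labels with DMSO it went from 3 to 1 with at least 10 fragments and to 20 at 1.5-fold. With baicalin it went from 1 to 5 with a pseudocount of 0.1 or none and to 11 at 1.5-fold. It went to 0 with at least 10 fragments, with an FPKM of at least 5 or without genes sharing a near-identical stretch. The median of the nuclear subunits moved between labels in TPM, to 0.23 with DMSO and 0.032 with baicalin. The share of the mitochondrial genes was 7.46%, 6.11%, 10.4% and 8.88% of summed FPKM, and 2.84%, 2.48%, 4.18% and 3.67% of fragments with all mt- symbols, in the order of libraries above. In an alternative chosen after seeing the data, fragments of each mitochondrial gene were summed with those of its nuclear copies, and the medians were -0.23, -0.35, 0.61 and 0.49 in the order of comparisons above. Of 132 alternative values for sets 105 stayed within their margin, and of 665 for single genes 612 did. Replicate spread is unknown here, and genes under 10 fragments have wide counting intervals.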
